A study of Mus musculus with 4 samples.

Results

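Shelves of CpG islands that lie inside genes were described by their DNA methylation in CGR8, an embryonic stem cell line of the mouse. The deposited CpG island table divides the surroundings of each island into the island itself, a shore on each side and, beyond each shore, a shelf of 2000 bp. The members were the 7694 rows of the table marked both as shelf and as intragenic, out of 80045 rows in all. They flank 3847 islands assigned to 2951 genes. Each shelf begins 2000 bp from its island. The assay was reduced representation bisulfite sequencing (RRBS). It digests DNA with MspI, which cuts at CCGG, keeps short fragments, and reads as C only those cytosines that methylation protected from bisulfite. All cells were grown with serum and the cytokine LIF and were stably transfected with the ppy-cagg-ires-puro vector. In the control group (2 libraries) the vector was empty, and in the netrin-1 group (2 libraries) it carried a netrin-1 transgene. The controls are therefore transfected cells, although the series' design text calls them wild type. The labels do not say what a replicate is (a transfection, a clone, a culture or a DNA sample), so p-values measure only the spread between these libraries, which may be technical.

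CpG islands are stretches rich in CpG that mostly stay unmethylated, above all at promoters, whereas most CpGs elsewhere in mammalian genomes are methylated. Shores and shelves are the transition between these states. DNA methylation is laid down by Dnmt3a and Dnmt3b, copied at replication by Dnmt1 and oxidised by the Tet enzymes, and in mouse embryonic stem cells kept with serum its level in the genome is high. Netrin-1 is a secreted guidance protein that binds the receptors Dcc, neogenin and the Unc5 family.

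A shelf is defined by its distance from an island and not by what lies in it. Among the members, 702 (9.12%) held a transcription start site of the deposited gene table, and 510 held at least 1 whole start window of RefSeq (300 bases around an annotated start, GRCm38.p6). Of the 589 windows inside members, 44.8% held at least 16 CGs, against 33.0% of all 32851 windows of the RefSeq table. The site cut by MspI, CCGG, which reads the same on both strands and contains a CG, was present in 67.7% of the windows inside members and in 52.8% of all windows. The level of a shelf was lower the more CGs its start window held, and 4 windows are shown to make this range visible. They were chosen after the values were seen, as the shelf with exactly 1 window and at least 10 calls in every library whose level was nearest the mean of its class. The capitals mark CCGG. The first 2 windows hold none.

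Start of Atg9b, chr5:24392094-24392393, minus strand, 2 CGs: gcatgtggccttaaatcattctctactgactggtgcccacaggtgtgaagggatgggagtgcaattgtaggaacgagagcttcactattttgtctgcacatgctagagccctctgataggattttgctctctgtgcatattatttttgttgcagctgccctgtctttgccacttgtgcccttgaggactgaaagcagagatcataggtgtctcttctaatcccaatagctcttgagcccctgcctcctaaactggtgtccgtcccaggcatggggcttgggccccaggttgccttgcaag
Start of Rem2, chr14:54475850-54476149, plus strand, 5 CGs: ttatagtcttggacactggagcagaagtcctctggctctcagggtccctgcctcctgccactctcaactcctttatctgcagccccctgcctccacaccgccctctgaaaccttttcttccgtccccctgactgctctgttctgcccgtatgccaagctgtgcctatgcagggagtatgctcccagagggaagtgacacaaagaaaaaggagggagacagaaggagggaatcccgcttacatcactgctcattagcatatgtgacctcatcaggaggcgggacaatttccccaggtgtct
Start of Ctu1, chr7:43671781-43672080, plus strand, 14 CGs: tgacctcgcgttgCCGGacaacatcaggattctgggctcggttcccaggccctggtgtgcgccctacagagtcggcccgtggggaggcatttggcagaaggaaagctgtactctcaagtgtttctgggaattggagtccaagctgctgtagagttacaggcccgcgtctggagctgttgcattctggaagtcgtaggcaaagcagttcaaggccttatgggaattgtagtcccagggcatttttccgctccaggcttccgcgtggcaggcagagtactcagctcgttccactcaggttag
Start of 2310011J03Rik, in a shelf of a Pcsk4 island, chr10:80320499-80320798, minus strand, 19 CGs: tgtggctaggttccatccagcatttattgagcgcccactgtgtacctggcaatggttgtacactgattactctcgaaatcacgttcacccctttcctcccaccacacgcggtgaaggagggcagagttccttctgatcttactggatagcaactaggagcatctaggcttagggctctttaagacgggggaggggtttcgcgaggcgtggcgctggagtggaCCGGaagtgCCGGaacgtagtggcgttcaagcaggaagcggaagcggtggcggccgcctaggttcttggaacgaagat

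The methylation level of a shelf is the share of its calls (a cytosine seen in a read) that were methylated. The shelf with the Atg9b start, a gene of autophagy, had 14.2% and 16.3% in the controls and 37.9% and 18.6% in the netrin-1 libraries. The shelf with the start of Rem2, a small GTPase gene, had 18.5% and 30.3% in the controls and 21.8% and 12.0% in the netrin-1 libraries. The shelf with the start of Ctu1, a gene of tRNA modification, had 6.41% and 7.95% against 10.7% and 3.89%. The shelf with the 2310011J03Rik start had 1.57% and 4.53% against 2.12% and 3.70%. The libraries of a group differed widely in the first 2 shelves, and the groups overlapped in the last 3. Classes were wide. Among shelves with exactly 1 window, the mean level ran from 0.459% to 55.3% in the class with up to 3 CGs (29 shelves) and from 0.249% to 19.2% in the class with 16 or more (154 shelves). The shelf with the most calls in each class, which was looked at first, had a mean level of 0.459% (Ggn), 2.62% (Cacnb3), 1.64% (Cul7) and 1.02% (Pax2), so the best-covered shelves did not show the range.

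RRBS reached less than the whole set. No library had a call in 4037 shelves (52.5%), while in 3282 (42.7%) each library had 10 calls or more. These 3282 shelves, next to islands of 1870 genes, are called covered here. Summed over all members, the controls held 1391936 and 1878331 calls, and the netrin-1 libraries 1601349 and 2435382. For the median covered shelf these numbers were 175 and 242 against 204 and 294, at 14 to 15 positions. The netrin-1 libraries bracketed control replicate 2 in depth. Promoters of embryonic stem cell markers were mostly unmethylated. Of 10 listed, 8 reached 10 calls in each library, and 7 of these stayed under 10% throughout. The exception was Esrrb, with 51.7% and 9.43% in the controls and 49.4% and 14.8% in the netrin-1 libraries, and Nanog and Dppa5a had no calls.

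Covered shelves were mostly of low to intermediate level. The median level was 21.4% and 21.6% in the controls and 19.7% and 17.8% in the netrin-1 libraries. Between 26.6% and 31.7% of the shelves were under 5% in a library, and between 12.7% and 15.5% were over 50%. Few were highly methylated, and only 49 had a mean over the 4 libraries of at least 70%. The lowest pooled level among the 2021 shelves with at least 100 calls in every library was 0.0706%, at Leng8, where 3 libraries had no methylated call and netrin-1 replicate 1 had 0.307%. For the controls of that shelf, no methylated call allows a level of up to 0.459%, which covers counting error only. The highest pooled level was 79.4%, at Dlgap4, a scaffold gene of the synapse, with 81.1% and 81.2% in the controls and 81.2% and 76.2% in the netrin-1 libraries.

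**Figure D1:**
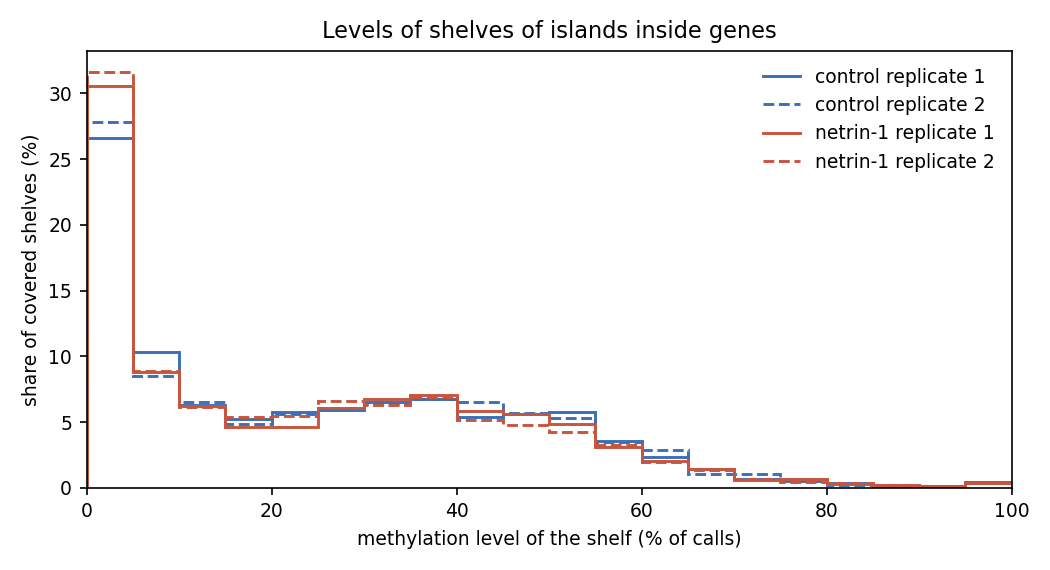
Share of the 3282 covered shelves (vertical axis, in percent) in steps of 5 percentage points of methylation level (horizontal axis), with 1 line for each library. Both netrin-1 libraries have more shelves under 5% (30.6% and 31.7%) than both controls (26.6% and 27.8%).

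Levels were higher outward from the island. In the 421 intragenic islands with the island, both shores and both shelves covered, the mean level in control replicate 1 was 7.43% in the island, 16.2% in the shores and 23.2% in the shelves, and the same order held in each of the 4 libraries. It held in 233 of the 421 islands taken singly (55.3%), while in 59 (14.0%) the shelves were below their island. The 2 shelves of an island were only loosely alike. Over 838 islands with both shelves covered, Pearson's r between their mean levels was 0.25 across islands, which share libraries and are not replicates. The median gap between the 2 shelves was 14.9 percentage points. Shelves were on average higher than gene bodies. The 2063 covered shelves wholly inside their gene averaged 28.0%. The bodies of their 1303 genes, each counted once for every such shelf, averaged 19.9%, and r across these shelves was 0.47. A gene body value pools all calls of the body. It includes the shelf's own calls and those of any island or shore there.

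**Figure D2:**
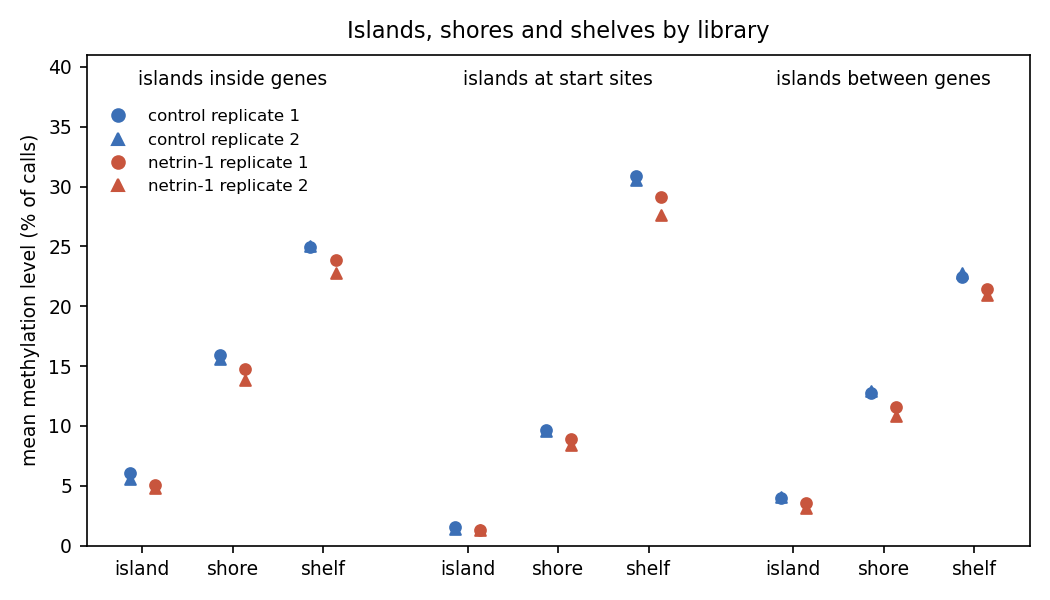
Mean methylation level (vertical axis, percent of calls) of islands, shores and shelves around islands inside genes, at start sites and between genes, with 1 point for each library over features with at least 10 calls in every library. In shelves of islands inside genes, both netrin-1 libraries (23.87% and 22.75%) lie below both controls (24.92% and 25.03%).

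Levels differed widely by what else lay in a shelf. Of the covered shelves, 1633 (49.8%) overlapped another feature of the table, since islands inside genes often stand close together or close to a promoter. The 1649 that overlapped none averaged 33.8% and 34.4% in the controls and 33.0% and 31.5% in the netrin-1 libraries. The 873 that overlapped an island averaged 7.15% and 6.66% against 6.29% and 5.89%. The 431 that overlapped an island at a start site averaged 4.26% and 3.85% against 3.63% and 3.23%. Lower still were the 342 that overlapped an island and held a start site, with 3.94% and 3.41% against 3.43% and 2.96%. Since the calls of such shelves come in part from the island, these levels describe the mixture. A start site without an island went with an intermediate level, 18.5% and 18.5% in the 188 shelves of the controls against 16.7% and 16.3%. Among shelves with a RefSeq start window, the mean in control replicate 1 was 25.7% with up to 3 CGs (31 shelves), 22.6% with 4 to 7 (52 shelves), 8.64% with 8 to 15 (98 shelves) and 3.001% with 16 or more (211 shelves). The order was the same in each of the other libraries.

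**Figure D3:**
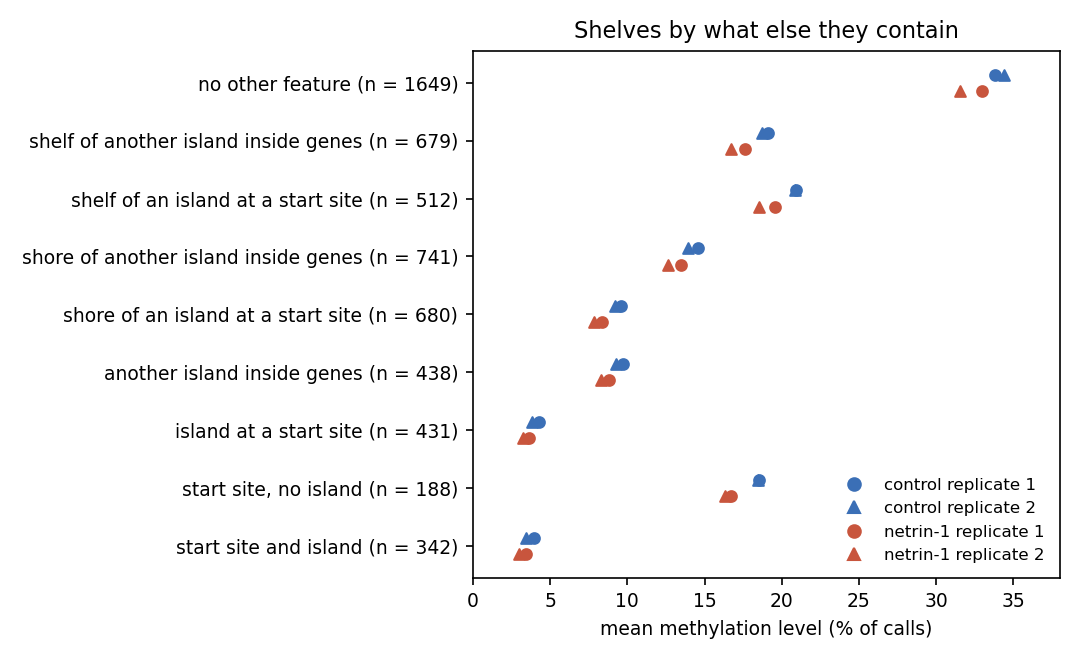
Mean methylation level (horizontal axis, percent of calls) of covered shelves grouped by what else they overlap, with 1 point for each library. The groups can share shelves. Shelves with no other feature lie between 31.5% and 34.4%, and shelves that overlap an island at a start site between 3.23% and 4.26%.

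Levels also differed by distance from the start of the gene. Shelves that reach the start averaged 8.61% and 8.17% in the controls (373 shelves), and those at 1 to 2000 bp 17.2% and 17.8%. Those at 10000 to 50000 bp averaged 30.4% and 30.3%, and those at 50000 to 200000 bp 35.3% and 35.9% (401 shelves). The rise did not go on beyond that, since the 97 shelves at 200000 bp or more averaged 32.5% and 32.8%. Among shelves with no other feature the range was narrower, from 29.1% and 30.7% at 1 to 2000 bp (120 shelves) to 37.4% and 38.7% at 50000 to 200000 bp (305 shelves). At 200000 bp or more, 68 such shelves averaged 35.3% and 36.4%. Shelves on the side of the gene start averaged 22.5% and 22.6%, and those on the far side 27.6% and 27.8%. Among shelves with no other feature the sides were 33.6% and 34.2% against 33.9% and 34.6%. Shelves of more methylated islands were higher. With the island under 2%, shelves with no other feature averaged 31.9% and 32.2% in the controls (710 shelves), and with the island at 30% or more they averaged 39.4% and 40.8% (79 shelves).

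Shelves were lower in the netrin-1 libraries by a small amount. The mean level of the covered shelves was 24.98% ± 0.0788 in the controls and 23.3% ± 0.797 in the netrin-1 group (SD, n = 2 libraries each), a difference of -1.67 percentage points. The groups did not overlap. The difference was larger than either SD, but the exact two-sided permutation test over the 4 libraries gave p = 0.333, the smallest p that 2 against 2 can give. Netrin-1 replicate 2 was both the deepest and the lowest library, and without it the difference was -1.11. Depth as a part of this difference was not tested.

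Single shelves leaned the same way. Of the 3282, 2075 were lower in mean, 1188 higher and 19 equal. Both netrin-1 libraries lay below both controls in 902 shelves (27.5%), against 23.6% of all features with at least 10 calls, and above both in 361 (11%), against 11.2%. The share lower was 63.2%, against 59% of all features, the share higher was 36.2%, against 38.6%, and the median difference was -0.89 against -0.32 percentage points. All features include 10106 islands at start sites, with 53.1% lower and a median of -0.05. The classes most alike had similar shares lower: 64.2% (shelves at start sites), 63.1% (shelves between genes) and 63.4% (shores inside genes). Their medians were -1.72, -0.84 and -0.80. In the 1531 shelves tested singly, where calls and level allow a test, the shares not overlapping were 30.5% lower and 10.5% higher, against 32.2% and 9.39% of all tested features. By mean, 1024 of the 1531 were lower (66.9%, against 67.6%) and 507 higher (33.1%, against 32.4%). All 4 shares are close to the background of the table. Of the 838 pairs of shelves of 1 island, both were lower in 355, both higher in 116, and the 2 went opposite ways in 356.

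In percentage points, the difference was greatest at intermediate levels. In the 743 shelves with a mean of 10% to 30% over the 4 libraries, the controls had 21.3% and 21.6% and the netrin-1 libraries 19.1% and 17.7%, which differ by -3.06 percentage points. It was -0.84 in the 1226 shelves under 10%, -2.03 in the 890 at 30% to 50% and -1.07 in the 374 at 50% to 70%, and these 4 classes had no overlap between the groups. Relative to the control level it was greatest under 10%, at -22.01%, against -14.29% at 10% to 30%. In the 49 shelves at 70% or more the groups overlapped, with 82.7% and 80.6% against 84.0% and 81.0%.

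**Figure D4:**
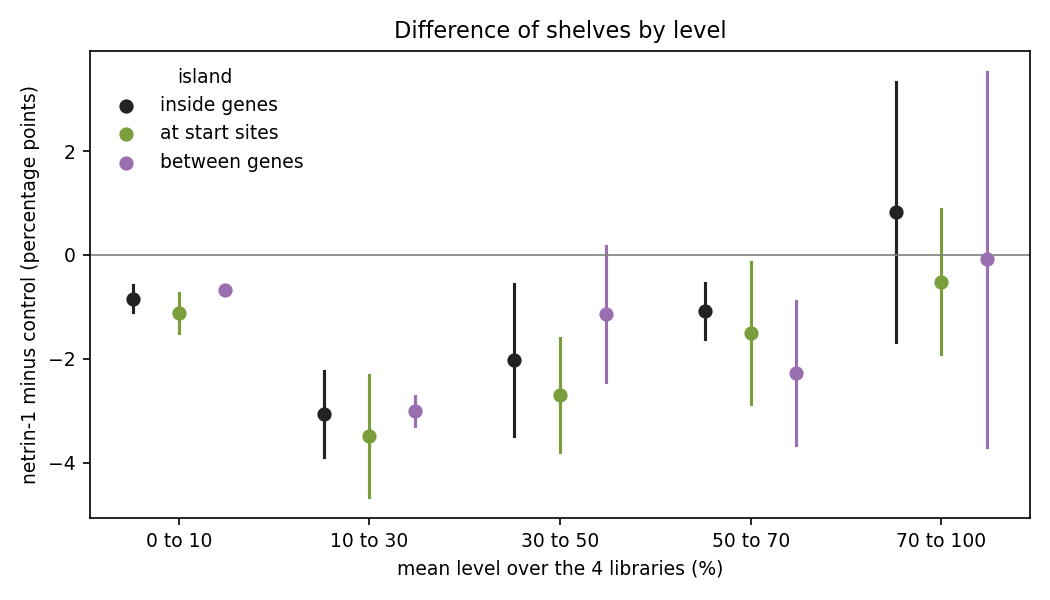
Difference between the groups (vertical axis, netrin-1 minus control, percentage points) of shelves in classes of mean level over the 4 libraries (horizontal axis, percent), for islands inside genes, at start sites and between genes. Points are differences of group means and lines run from the lowest to the highest difference between a netrin-1 and a control library. Shelves of islands inside genes at 10% to 30% show the greatest difference of their 5 classes, -3.06.

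The other shelves of the table went the same way. Shelves of islands at start sites had 30.8% and 30.6% in the controls and 29.1% and 27.7% in the netrin-1 libraries, which is 0.65 percentage points more of a difference than in shelves of islands inside genes (exact two-sided permutation p = 0.333). The difference of shelves of islands between genes was smaller by 0.22 in size, and that of shores of islands inside genes by 0.20, and neither comparison separated the libraries (exact two-sided permutation p = 0.667 for each). Both of these change sign when shelves are weighted by their calls. By chromosome, the mean was lower on 20 of 20 and the groups did not overlap on 18. It ranged from -0.75 on chromosome 12, where the groups overlapped, to -4.49 on chromosome 14, where 75 shelves had 22.4% and 22.5% against 18.4% and 17.5%.

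Few single shelves passed the test. A quasi-binomial logistic model of methylated and unmethylated calls, moderated with limma and adjusted by Benjamini-Hochberg over all 11815 tested features, called 3 of 1531 shelves (0.196%), against 0.186% of the table. It called 2 as lower (0.131%, against 0.118%) and 1 as higher (0.0653%, against 0.0677%). At an unadjusted p under 0.05 there were 178 shelves (11.6%, against 12.1% of all tested features), of which 154 were lower (10.06%, against 10.5%) and 24 higher (1.57%, against 1.53%). These shares are at the background of the table. With every library's mean log odds over the tested features set level, 150 of the 1531 shelves were under that threshold, 65 lower and 85 higher. Of all 11815 tested features, 1080 were under it. The calls were 0 lower and 2 higher (0.131%), against 5 lower and 18 higher in the table (0.195%). With the libraries set level in this way, 46.0% of the tested shelves were lower and 54.0% higher, and of all tested features 48.4% and 51.6%.

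Spen, whose product is a large nuclear protein that represses transcription and acts in X inactivation, had the shelf with the greater called fall. It lies at chr4:141473453-141475452, wholly inside the gene and 63145 bp from its start. The level was 20.1% and 20.6% in the controls and 9.10% and 9.67% in the netrin-1 libraries, with 976 to 1499 calls in a library. The groups were far apart and each was tight. The shelf fell by 10.95 percentage points (quasi-binomial test moderated with limma, adjusted p = 0.0443). A pair of shelves of neighbouring islands overlaps it and shares calls with it. They had 32.2% and 30.9% against 27.1% and 26.6%, and 28.6% and 24.3% against 21.2% and 20.8%. Neither was called. The island of the called shelf had 7.41% in the controls and 9.30% in the netrin-1 group. Leaving out control replicate 2 ended the call (adjusted p = 0.0670 by the same test), as did leaving out netrin-1 replicate 1 (0.0630) or netrin-1 replicate 2 (0.156). In all, 9 of 14 alternatives ended it, with adjusted p up to 0.824.

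Prickle1, a gene of planar cell polarity, held the other called fall, at chr15:93499210-93501209, inside the gene and 94682 bp from its start. The level was 34.5% and 33.6% in the controls and 24.9% and 25.2% in the netrin-1 libraries. Both groups were tight and did not overlap. The shelf fell by 8.94 percentage points (quasi-binomial test moderated with limma, adjusted p = 0.0473). It overlaps another island and its shore. The shores of its own island were at 41.95% in the controls and 49.7% in the netrin-1 group. The depth of the shelf moved with the groups, with 2876 and 3427 calls in the controls and 1803 and 2588 in the netrin-1 libraries. That is 0.563 of the control depth after scaling to the libraries' totals. The other chromosome 15 shelves picked by the naming rule were also below the control depth, from 0.336 (Plec) to 0.886 (Wnt7b). The part of depth in the level was not tested. Leaving out either netrin-1 library ended the call (adjusted p = 0.0612 without replicate 1 and 0.203 without replicate 2, by the same test), and so did moderation that was not robust (0.0748). In all, 9 of 14 alternatives ended it, with adjusted p up to 0.824.

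Yam1, a long non-coding RNA gene, had the called rise, at chr17:39844221-39846220. This shelf is not wholly inside the gene. It lies entirely within another island, classed as intergenic (chr17:39843169-39846346), so its level is that of island sequence. The level was 1.76% and 1.36% in the controls and 2.35% and 2.09% in the netrin-1 libraries. The rise was 0.66 percentage points (quasi-binomial test moderated with limma, adjusted p = 0.0236), and the groups did not overlap. This single shelf took 18.4% to 19.99% of all member calls in a library, with 255483 to 486752 calls. RefSeq (GRCm38.p6) places Rn18s-rs5, a pseudogene of the 18S ribosomal RNA family, 134 bp beyond its end. Ribosomal RNA genes are present in many copies in the mouse genome, and reads from copies at other places cannot be told apart here. The other 6 features with calls that the table assigns to Yam1, some of which overlap the shelf or each other, were each higher in both netrin-1 libraries than in both controls, with 2.00% to 2.80% against 1.29% to 2.04%. It was no longer called with control replicate 2 left out (adjusted p = 0.0861 by the same test) or with netrin-1 replicate 1 left out (0.0612). In all, 6 of 14 alternatives ended the call, with adjusted p up to 0.824.

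The 10 shelves furthest below the controls in mean, among tested shelves whose groups did not overlap, were not called. They lie at Son, Eif2ak4, Cdk14, Mmd, Hdhd3, Atp2b2, Plekha7, Atp7b, Plec and Gm26666, and were chosen by this difference, which is given as a description. Son, a splicing factor gene, had 68.7% and 49.1% in the controls and 34.4% and 30.1% in the netrin-1 libraries. The other shelf of its island, which was not tested, had 86.5% and 84.2% against 54.9% and 46.8%. Eif2ak4, which encodes the amino acid sensing kinase Gcn2, had 60.6% and 61.7% against 32.8% and 36.3%. These 2 shelves had 116 to 436 calls a library, and the 10 together 63 to 681, against at least 976 in the called shelves. Depth moved with the groups in some. Son had 134 and 165 calls in the controls and 308 and 436 in the netrin-1 libraries. After scaling to the libraries' totals, netrin-1 depth ran from 0.336 (Plec) to 2.02 (Son) of the control depth over the 10. The part of this in the level was not tested. Plekha7, a gene of adherens junctions, had 43.9% and 42.6% against 24.6% and 19.5% and the lowest adjusted p of the 10, 0.0564 by the same limma-moderated test. Plec, the gene of the cytolinker plectin, had 15 covered shelves around 8 islands, the most of any gene, and their mean levels ran from 8.44% to 60.9%. Of these 10 were lower and 5 higher, and none was called.

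The 10 shelves furthest above the controls, chosen in the same way, lie at Ldha, Gm15475, Gm20388, Fibcd1, Evpl, Grin2c, Ppfia3, Slc4a2, Ank3 and Tcf7l2, and none was called. Ldha, the gene of a lactate dehydrogenase subunit, had 24.4% and 14.1% in the controls and 39.7% and 57.3% in the netrin-1 libraries. The other shelf of its island had 14.4% and 15.3% against 15.1% and 17.05%, so the groups were close there. Slc4a2, an anion exchanger gene, had 26.5% and 24.5% against 42.5% and 39.8%, with adjusted p = 0.0678 by the limma-moderated test. The other shelf of that island went the opposite way, with 30% and 26.02% against 9.91% and 13.8%. Ank3, the gene of ankyrin G, had 43.6% and 39.5% against 54.8% and 59.5%. These 10 shelves had from 25 (Gm15475, control replicate 1) to 1087 (Slc4a2, control replicate 2) calls a library. In control replicate 1, Ppfia3 had 46, Fibcd1 59 and Grin2c 60. Over these 10, netrin-1 depth ran from 0.540 (Tcf7l2) to 1.71 (Gm15475) of the control depth after scaling to the libraries' totals. Its part in the level was not tested.

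**Figure D5:**
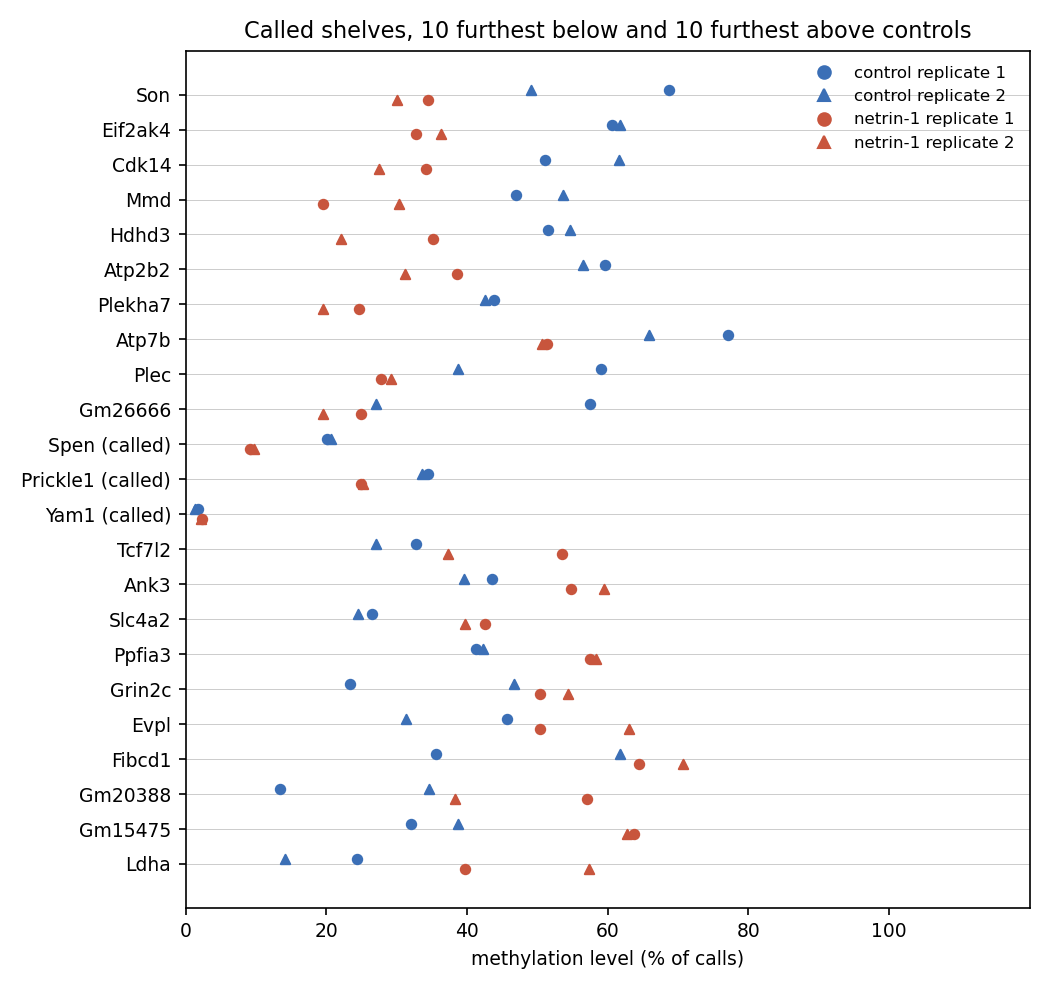
Methylation level (horizontal axis, percent of calls) of the 3 called shelves and of the 10 shelves furthest below and the 10 furthest above the controls among tested shelves whose groups did not overlap, with 1 point for each library. Spen and Prickle1 have smaller differences than the 10 furthest below but tight groups, and Yam1 lies between 1.36% and 2.35%.

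Lists of developmental and signalling genes were described by counts only. Of all covered shelves, 63.2% were lower in mean and 36.2% higher, against 59% and 38.6% of all features with at least 10 calls. Of all tested features, 0.186% were called. Homeobox and paired-box genes, which specify position and cell identity in the embryo, had the most covered shelves of the 12 lists, 168 at 64 genes. Their mean was 11.6% and 11.9% in the controls and 10.3% and 9.20% in the netrin-1 libraries, well below the mean of all covered shelves. In mean 127 were lower and 41 higher. The median difference was -1.05, against -0.89 percentage points over all members. The groups did not overlap in 72 lower shelves (42.9%, against 27.5% of all covered shelves and 23.6% of all features with at least 10 calls). They did not overlap in 13 higher ones (7.74%, against 11% and 11.2%). None of 81 tested was called, and at an unadjusted p under 0.05 there were 17 lower (20.99%, against 10.5% of all tested features) and 0 higher (against 1.53%). Pax2, a paired-box gene of kidney and eye development, had the most calls of the list, with 1.24% and 1.21% against 0.875% and 0.737%. A shelf of Otx2, a homeobox gene of the forebrain and of the exit from naive pluripotency, had 12.0% and 8.75% against 4.47% and 4.22%. The groups were apart, but the adjusted p was 0.0678 by the limma-moderated test. A shelf that overlaps it had 21.2% and 12.6% against 6.69% and 3.53% (adjusted p = 0.0887 by the same test). The other shelf of its island, which was not tested, had 1.08% and 1.49% against 0% and 1.13%. Overlapping shelves share calls, and the counts of a list do not separate them.

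Axon guidance genes of the Slit, semaphorin, plexin and ephrin families had 33 covered shelves, 24 lower and 9 higher in mean. The groups did not overlap in 14 lower (42.4%, against 27.5% of all covered shelves and 23.6% of all features). They did not overlap in 1 higher (3.03%, against 11% and 11.2%). The median difference of this list was -0.45, smaller in size than the -0.89 percentage points over all members. None of 18 tested was called, and at an unadjusted p under 0.05 there were 8 lower (44.4%, against 10.5%) and 0 higher. Netrin ligands and receptors had 12 covered shelves, 8 lower and 4 higher, and 0 of 7 tested were called. At an unadjusted p under 0.05 this list had 0 lower and 0 higher, against 10.5% and 1.53% of all tested features. Its groups did not overlap in 2 lower shelves (16.7%) and 1 higher (8.33%). Ntn1 itself, the gene of the transgene's product, had a tested shelf at chr11:68383051-68385050 with 10.6% and 6.09% in the controls and 4.50% and 7.80% in the netrin-1 libraries. The groups overlapped (limma-moderated test, adjusted p = 0.858). Whether the transgene adds reads to this region was not tested. The Wnt and planar polarity list had 59 covered shelves, 36 lower and 23 higher. Of 41 tested, 1 was called, Prickle1, where 0.186% of all tested features were called. Collagens, laminins and integrins had 9 lower and 4 higher of 13 and no call in 9 tests. At an unadjusted p under 0.05 these 2 lists had 5 and 1 lower (12.2% and 11.1%, against 10.5%) and 0 higher.

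Pluripotency genes had few shelves. Naive and core pluripotency genes had 16 covered shelves at 4 genes, 13 lower, 2 higher and 1 equal, and 0 of 4 tested were called. Esrrb, a naive pluripotency factor, had 4.07% and 3.70% against 3.09% and 2.10%. Primed and formative genes had 11, 10 lower and 1 higher, and 0 of 2 tested were called. DNA methylation writers, erasers and readers had 7, 4 lower and 3 higher, with 0 of 2 tested called. The tested shelf with the most calls there was that of Tet1, a methylcytosine oxidase, with 12.0% and 5.69% against 2.39% and 4.44%. The groups were apart by little beside the spread of the controls (limma-moderated test, adjusted p = 0.339). Histone lysine methyltransferases and demethylases had 18 lower and 5 higher of 23, genes of FGF, MAPK and Notch signalling 18 and 12 of 30, voltage-gated channels 18 and 10 of 28, and imprinted genes 10 and 4 of 14. No shelf of these lists was called, in 16, 12, 15 and 3 tests. At an unadjusted p under 0.05 they had 1, 2, 0 and 1 lower (6.25%, 16.7%, 0% and 33.3%, against 10.5%). Higher were 1, 0, 1 and 0. The naive, primed and DNA methylation lists had 1 of 4, 2 of 2 and 1 of 2 lower at that threshold and 0 higher.

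Covered shelves held the hairpins of microRNAs in 17 cases, and the mature forms of 3 are shown as examples from tested shelves of high and low level. They were chosen after the values were seen, and other shelves with hairpins lay above and below them. The capitals mark the seed (bases 2 to 8), and none of the 3 seeds is shared (RefSeq, GRCm38.p6).
miR-1963, in a Ryr1 shelf: uGGGACGAgaucaugaggccuuc
miR-196b-5p, in shelves of Hoxa9 and Hoxa10: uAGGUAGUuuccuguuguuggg
miR-9-5p, from the Mir9-3 hairpin in an AI854517 shelf: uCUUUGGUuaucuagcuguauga
The shelf of Ryr1, a calcium release channel gene, had 42.2% and 47.4% in the controls and 27.3% and 23.0% in the netrin-1 libraries. The groups did not overlap, but it was not called (limma-moderated test, adjusted p = 0.153). The Hoxa9 shelf had 4.35% and 5.30% against 3.40% and 4.11%, and the AI854517 shelf 0.777% and 1.53% against 1.44% and 1.11%. Over the 17 shelves the means were 15.2% and 17.95% in the controls and 16.7% and 17.8% in the netrin-1 libraries, and the groups overlapped.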

How the data were processed

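RRBS libraries of control (2) and netrin-1 (2) cells were grouped by their titles. The authors deposited, per the file headers, counts of total and methylated calls and covered positions per feature, and the level as a fraction, recomputed here as a percent. The submitters' processing notes name mm10, GRCm38 and FastQC. Which aligner and methylation caller were used, and how sites, duplicates and incomplete conversion were handled, is not stated in the labels or headers used here. The island table also gives each island's observed to expected CpG ratio, per the file headers, which was not analysed here. In copies and working sheets of the tables, 75 columns of per-sample values were not used. No pair of libraries had identical calls.

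Mean levels are unweighted over shelves with at least 10 calls in every library, with an exact permutation test (two-sided, over the 4 libraries) between groups. Single features were tested over the whole island table with a quasi-binomial logistic model, its dispersion moderated robustly along coverage with limma 3.58.1 in R 4.3.3 and kept at 1 or more, after the test was checked on simulated data. A feature was tested with 10 or more calls in each library, levels that were not identical, and total calls times level times (1 - level) of at least 100 over the 4 libraries. That last minimum was set in an earlier analysis of these data after its counts had been seen. Calls had an adjusted p (Benjamini-Hochberg) under 0.05. Descriptions used Python 3.11.15 and pandas 2.3.3.

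The members, gene lists and naming rule were chosen with earlier results of these data known. Shelves named are those called, the 10 furthest below and the 10 furthest above the controls with groups that do not overlap, the 3 with the most calls, the lowest and the highest, the tested shelf of each list with the most calls, and those next to the test minimum. Just inside that minimum were Matn4, Sez6l and Cdc42ep5, and just outside it Col6a2, Lhx2 and Ctu1. The planned display of sequence from the called shelves was not made, since no genome was used here. The start windows of RefSeq shown in its place were chosen after the values were seen, by a rule that replaced a first one (most calls), as were the microRNAs. Same-numbered libraries did not deviate together (r = -0.03 over 1531 tested shelves). Calls from amplified reads are not independent molecules, so limits cover counting error only.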

Additional observations from a re-analysis of the deposited data

How the results depend on the processing

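The difference in mean level kept its sign under all 14 alternatives tried, from -1.11 when shelves were weighted by their calls to -2.74 as a difference of medians, and from -2.26 to -1.11 with each library left out. Of these, 2 were chosen after seeing the data: shelves with no start site (-1.79), and weighting without the shelf with the most calls (-1.35). The difference against shelves of islands at start sites kept its sign, at 0.44 to 0.86 with each library left out. That against shelves of islands between genes changed sign when weighted by calls (0.05003), with a range of -0.598 to 0.0655 with each library left out, and that against shores when weighted by calls (0.0661), with a range of -0.407 to 0.0780. The cause was not tested.

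The main count of 3 called shelves was 35 with no minimum on calls times level, where 3263 shelves were tested (1.07%, against 0.964% of the table), 10 with neither that minimum nor robust moderation (0.306%, against 0.138%), and 0 with no moderation, with limma on percentage points, with limma on M values, or with the fit over shelves only. At an unadjusted p under 0.05 these last 4 gave 50, 145, 148 and 179 of 1531 shelves. The table had 432, 1160 and 1167 of 11815 features, in the same order, and the fit over shelves only had 557 of 4758 shelves. It was 2 to 7 with each library left out (0.136% to 0.444%, against 0.199% to 0.587% of the table). The replicate numbers are shared by the groups, but over the tested shelves the levels of same-numbered libraries did not deviate together (r = -0.03). In depth, replicate 2 was the deeper library in both groups. With the replicate block, 1 shelf was called, Yam1 (0.0653%, against 0.118% of the table). The mean difference of -1.67 had an exact paired permutation p of 0.5 with that block, the smallest possible. In the centred fit, direction was read from the log odds of that fit, a choice made after a first reading in percentage points.

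Over 40 tested shelves named here, 545 alternative results left 494 on the same side, with 24 calls lost, 19 gained and 8 of opposite sign. The last were Epha10 (-0.698 to 0.748), Chst13 (-0.361 to 4.58), Kmt2b (-1.53 to 0.170), Ntn1 (-4.46 to 0.0598), Trappc9 (-0.272 to 0.0451) and Col2a1 (-2.35 to 0.0815), each as the range with a library left out, and Trappc9 (0.0965, log odds) in the centred fit. None of these was called under the main test. With 2 libraries a group, the permutation tests could not reach 0.05, and RRBS gave no call in 4037 of the 7694 shelves.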

Other observations

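Of the 3 shelves with the most calls, Yam1 is described above. That of Chst13, a sulfotransferase gene, had 63.2% and 61.5% in the controls and 62.0% and 66.9% in the netrin-1 libraries. That of Tbx2, a T-box transcription factor gene, had 4.35% and 3.42% against 3.09% and 2.78%, and overlaps an island at a start site. Tbx2 had 8 covered shelves, with mean levels from 0.912% to 8.07%. Such uniformly low shelves were also found at Pax6, an eye and brain development gene, where 9 shelves had 2.25% to 9.27%, and at Irx4, where 6 had 2.00% to 8.59%. At Fat1, an atypical cadherin gene, 9 shelves ran from 1.46% to 74.1%.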
